A study of Homo sapiens with 16 samples.

Results

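The S100 genes encode small proteins that bind calcium. The 10 members measured in these libraries described here are S100A2, S100A4, S100A6, S100A8, S100A9, S100A10, S100A11, S100A14, S100A16 and S100P, which are 10 of the 58721 genes in the deposited tables. They were picked out by gene name, and the list was drawn up with earlier results of these data known. The data are 16 libraries of RNA sequencing from the 3' end of transcripts from 2 bladder cancer cell lines, RT112, a luminal line, and SCaBER, a basal and squamous line. Each line was transfected with 10 nM of 1 of 4 small interfering RNAs (siRNAs), siFOXA1.1 and siFOXA1.2 against the transcription factor FOXA1 and the controls siControl.1 and siControl.2, with 2 libraries of each siRNA in each line. The 2 libraries of a siRNA are replicates of different experiment batches per the labels, which name no separate cultures, so p-values measure the spread between these libraries. All cells, controls included, received a siRNA and the transfection reagent, and the lines were grown in different media, so line and medium cannot be told apart. Each siRNA transfection was transient and in 1 established line, and only siFOXA1.1 and siFOXA1.2 target FOXA1.

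An S100 protein usually works as a dimer that changes shape when calcium binds and then takes hold of a partner protein. S100A8 and S100A9 pair to form calprotectin, which is abundant in neutrophils and is also made by stressed or squamous epithelium. S100A10 binds annexin A2 and, unlike its relatives, does not need calcium for it. S100P is a marker of luminal urothelium and of several adenocarcinomas, whereas S100A2 is a gene of basal and squamous epithelium. S100A4 and S100A6 are cytoplasmic members that bind cytoskeletal and other partners, and some members also act outside the cell through the receptor RAGE.

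Of the 10 genes, 9 lie on chromosome 1 (GRCh38.p14, RefSeq), from S100A10 (chr1:151982915-151993859, minus strand) and S100A11 (chr1:152032506-152037004) to S100A14 (chr1:153614255-153616325), next to the genes of the epidermal differentiation complex. S100P lies alone on chromosome 4 (chr4:6693878-6697170, plus strand). S100A4 (chr1:153543621-153545806) shares 65 bases with S100A5 on the same strand, so the split of reads between them there is uncertain. The 250 bases before the annotated start are shown for 4 members on which the RT112 results turn: S100P and S100A4, which fell under each FOXA1 siRNA, and S100A8 and S100A9, which differed most between the control siRNAs. Capitals mark the letters TATAAA, found by a search of both strands, and all sequences are from RefSeq and are written 5' to 3' along the gene.
S100P, chr4:6693628-6693877, plus strand: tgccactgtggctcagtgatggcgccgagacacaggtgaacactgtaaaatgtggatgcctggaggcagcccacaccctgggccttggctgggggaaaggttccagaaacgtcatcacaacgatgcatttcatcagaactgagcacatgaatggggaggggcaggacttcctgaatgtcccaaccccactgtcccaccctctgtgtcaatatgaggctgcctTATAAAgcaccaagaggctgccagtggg
S100A8, chr1:153391074-153391323, minus strand: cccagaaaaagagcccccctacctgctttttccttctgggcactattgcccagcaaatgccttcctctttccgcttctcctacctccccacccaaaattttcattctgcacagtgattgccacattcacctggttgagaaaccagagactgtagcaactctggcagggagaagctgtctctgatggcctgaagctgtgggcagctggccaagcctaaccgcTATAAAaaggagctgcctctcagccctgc
S100A9, chr1:153357604-153357853, plus strand: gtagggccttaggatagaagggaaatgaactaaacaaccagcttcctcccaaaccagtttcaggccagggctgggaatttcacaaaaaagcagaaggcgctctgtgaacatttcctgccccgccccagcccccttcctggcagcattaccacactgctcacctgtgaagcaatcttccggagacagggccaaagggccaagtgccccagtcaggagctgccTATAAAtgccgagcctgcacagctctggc
S100A4, chr1:153545807-153546056, minus strand: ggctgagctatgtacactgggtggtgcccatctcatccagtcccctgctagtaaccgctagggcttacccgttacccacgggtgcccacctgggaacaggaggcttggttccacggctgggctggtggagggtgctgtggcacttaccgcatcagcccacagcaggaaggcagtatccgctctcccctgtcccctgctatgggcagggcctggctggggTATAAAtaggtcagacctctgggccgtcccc
TATAAA lies 28 bases before the start in S100P, 29 in S100A8 and S100A9 and 31 in S100A4, and none of the other 6 members holds it in the window. It is present in 10.7% of 35116 promoter windows of the same length. S100A8 has 3 annotated windows, S100A2 and S100A16 have 2 each, and the window printed for S100A8 is the one with TATAAA nearest to its own start. The forkhead letters (TATTTAC or else TATTTGC, and also TGTTTAC or else TGTTTGC) were in 0 of the 14 windows of the members and in 10.6% of all windows, and the AP-1 letters TGANTCA were in 1 of the 14, in S100A2, 52 bases before its start and the same on both strands, and in 6.57% of all windows. The motifs searched do not overlap one another in these windows. These letter matches describe the windows and show no binding.

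Library totals ranged from 4528513 to 7604581 counts, and the 10 members together took 0.697% to 0.892% of the counts in the RT112 siControl libraries and 0.396% to 0.468% in the SCaBER siControl libraries. Levels are given as CPM (counts scaled to the library total), and the floor of 3 counts is 0.3945 to 0.6625 CPM, which covers counting error only. In RT112, FOXA1 was at 34.98 and 29.4 CPM under siControl.1, 18.2 and 28.4 under siControl.2, 1.32 and 3.24 under siFOXA1.1, and 9.18 and 16.0 under siFOXA1.2. Pooled, it was at 26.8% of the control mean in RT112 (two-sided exact permutation p = 0.0286, the smallest that 70 splits of 8 libraries allow). The fit with 1 mean per siRNA gave FOXA1 a log2 change of -3.45 ± 0.473 (SE) under siFOXA1.1 (edgeR adjusted p = 1.39e-05) and -1.10 ± 0.390 under siFOXA1.2 (adjusted p = 0.215). The FOXA1 siRNAs differed by -2.35 ± 0.497 (adjusted p = 0.00154), and the pooled edgeR fit gave -1.86 ± 0.573 (adjusted p = 0.278). In SCaBER, FOXA1 had 0 to 15 counts per library and was at 25.0% of the control mean (exact permutation p = 0.114), so its knock-down could not be checked there. Luminal markers summed to 3284 to 6253 CPM in RT112 and 507 to 1130 CPM in SCaBER, and basal or squamous markers to 779 to 1008 CPM in RT112 and 3469 to 7855 CPM in SCaBER. Of 10 myeloid markers, 6 were at 0 in every RT112 library (FCGR3A, FCGR3B, ITGAM, ITGB2, PTPRC and TYROBP) and 6 in every SCaBER library (CSF3R, FCGR3A, FCGR3B, LYZ, PTPRC and TYROBP). The myeloid sum was at most 7.91 CPM in RT112 and 63.9 CPM in SCaBER, where ITGB2 had 87 to 408 counts. Fibroblast markers summed to 85.2 to 146 CPM in RT112 and 11.2 to 46.1 CPM in SCaBER. Mitochondrial genes took 25.7% and 28.2% of the counts in the RT112 siFOXA1.1 libraries and 18.0% to 21.2% in the other RT112 libraries, and their part in the siFOXA1.1 results was not tested beyond a fit that left those genes out, which again called 6 members. In bulk libraries such as these, fewer cells with a transcript and less of it per cell cannot be told apart.

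Under the control siRNAs, the 2 lines carried different sets of S100 transcripts. In all, 6 members were higher in RT112 and 3 were higher in SCaBER, so 9 of 10 passed the test in edgeR (adjusted p under 0.05, 12309 genes tested), where 43.4% of all genes tested were called. The difference was widest for S100P, which was at 1304 to 2682 CPM in the 4 RT112 siControl libraries and 0.312 to 1.83 CPM in those of SCaBER. These are 55733 counts against 27 counts, a rate ratio of 1650 with a 95% exact interval of 1130 to 2500 for counting error only. S100A4 was at 157 to 215 CPM in RT112 and 6.70 to 18.1 CPM in SCaBER (log2 difference 4.05 ± 0.271, adjusted p = 2.46e-08). S100A9, of the calprotectin pair, was also the more abundant in RT112 (log2 difference 2.94 ± 0.276, adjusted p = 7.14e-07). S100A8 passed at 2.55 ± 0.665 (adjusted p = 0.00604), but its ranges overlapped, with 35.7 and 36.6 CPM under siControl.2 in RT112 and up to 56.7 CPM under siControl.1 in SCaBER. All 3 limma settings on TPM lost the S100A8 call (1.72 with log2(TPM + 1), adjusted p = 0.106, and 0.115 and 0.172 in the others). S100A14, an epithelial member, was higher by 2.26 ± 0.129 and S100A6 by 2.11 ± 0.210 (adjusted p = 4.69e-09 and 1.34e-06). SCaBER held more S100A2, at 984 to 1267 CPM against 71.9 to 157 CPM in RT112 (log2 difference -3.24 ± 0.208, adjusted p = 1.63e-08). S100A10 and S100A16 were lower in RT112 by smaller margins, -0.79 ± 0.167 and -0.42 ± 0.115 (adjusted p = 0.00136 and 0.00837). S100A11, a member that binds annexin A1, was at 753 to 989 CPM in RT112 and 931 to 1483 CPM in SCaBER, and its difference of -0.30 ± 0.153 did not pass in edgeR (adjusted p = 0.130, 95% interval -0.63 to 0.03). All 3 limma settings on TPM called it, at -0.68 (adjusted p = 0.00494 to 0.0203). Its siControl means were 886 CPM in RT112 and 1101 CPM in SCaBER, but 2552 and 4132 TPM. The TPM were not rescaled between libraries for limma. A shift common to all genes of a line therefore stays in these S100A8 and S100A11 values, and its part was not tested.

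**Figure D1:**
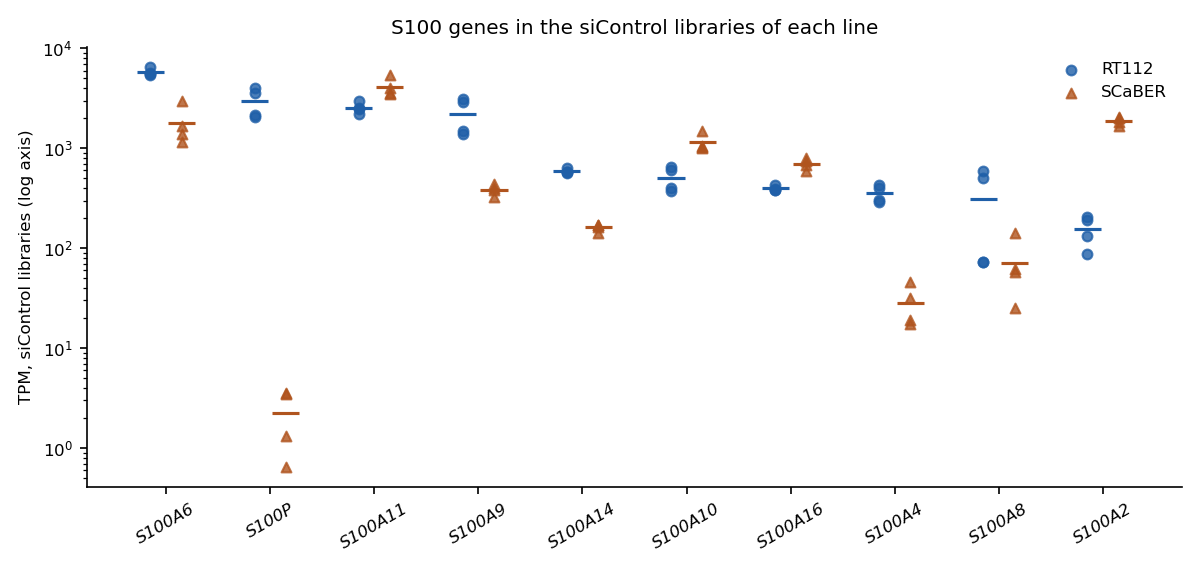
Level of each S100 gene in the 4 siControl libraries of each line, in deposited TPM (counts divided by gene length, on 1 common total) on a log axis, with circles for RT112, triangles for SCaBER and lines at the means. S100P stands at 2071 to 3975 TPM in RT112 and 0.65 to 3.56 TPM in SCaBER, and S100A2 is the member with the widest gap in the other direction.

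Within a line the members can be ordered by level per gene length in TPM. In RT112 siControl the order ran S100A6 (5792 ± 505 TPM, SD, n = 4), S100P (2943 ± 971), S100A11 (2552 ± 307), S100A9 (2221 ± 909), S100A14 (588 ± 28.5), S100A10 (510 ± 144), S100A16 (398 ± 24.4), S100A4 (355 ± 67.6), S100A8 (311 ± 277) and S100A2 (154 ± 55.1). S100A6 stood apart from S100P and S100A9 from S100A14, while every other pair of neighbours overlapped in range. In SCaBER siControl the order was S100A11 (4132 ± 898 TPM), S100A2 (1884 ± 170), S100A6 (1791 ± 810), S100A10 (1150 ± 239), S100A16 (704 ± 86.0), S100A9 (386 ± 47.01), S100A14 (161 ± 13.5), S100A8 (71.5 ± 48.9), S100A4 (28.4 ± 13.1) and S100P (2.26 ± 1.496). There S100A2 overlapped with S100A6, S100A6 with S100A10 and S100A8 with S100A4. A 3' kit does not count in proportion to gene length, and by CPM the places of S100A10 and S100A14 in RT112 and of S100A2, S100A11, S100A10 and S100A6 in SCaBER changed.

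In RT112, siFOXA1.1 gave calls for 6 of the 10 members against the mean of both controls, 5 lower and 1 higher. Of 13462 genes tested, 29.1% were called there. Under siFOXA1.2, 5 of 10 were called, 2 lower and 3 higher, where 1.78% of genes were called. The control siRNAs themselves differed in 4 of 10 members (3 higher under siControl.1, 1 lower), where 2.11% of genes were called. S100P and S100A4 fell under both FOXA1 siRNAs. The other members called in either comparison passed under 1 of the siRNAs or had calls of opposite sign. Some calls depended on the control. Under siFOXA1.1, S100A10 lost its call against siControl.1 alone and S100A8 against siControl.2 alone. Under siFOXA1.2, S100A4, S100A8 and S100A9 lost theirs against siControl.1 alone and S100A10 against siControl.2 alone. The members' median log2 change was -0.40 under siFOXA1.1 and 0.06 under siFOXA1.2, beside -0.02 and 0.02 over all genes tested.

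**Figure D2:**
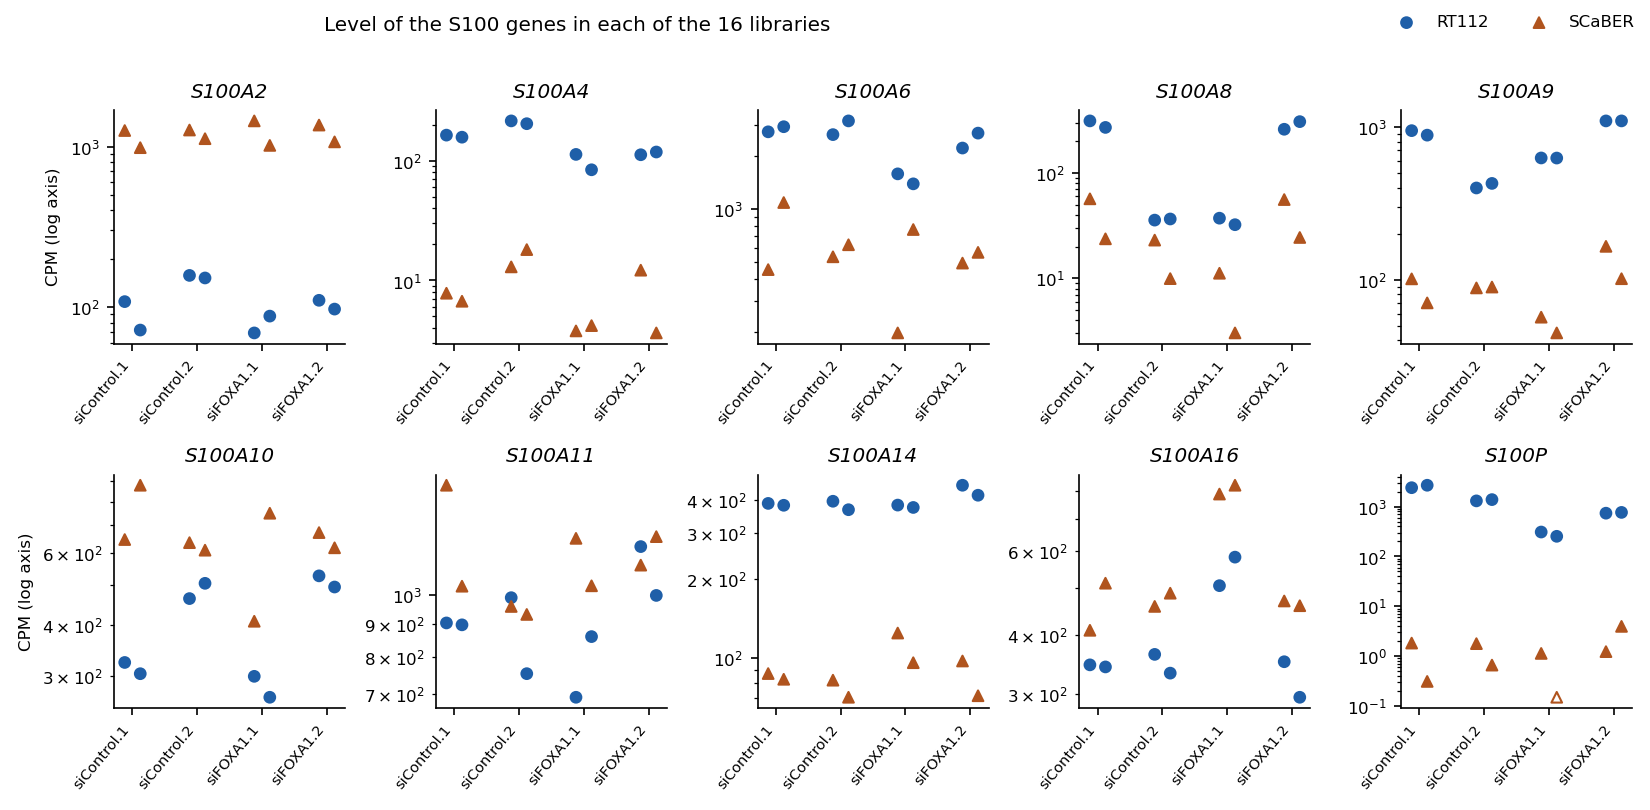
Level of each S100 gene in each of the 16 libraries, in CPM on log axes that differ between panels, with circles for RT112, triangles for SCaBER and the libraries of batch 1 and batch 2 side by side within a siRNA. An open triangle marks the SCaBER siFOXA1.1 library with 0 S100P counts, drawn at the foot of the axis, and in RT112 both siFOXA1.1 and both siFOXA1.2 libraries lie below all 4 control libraries for S100P and S100A4.

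**Figure D3:**
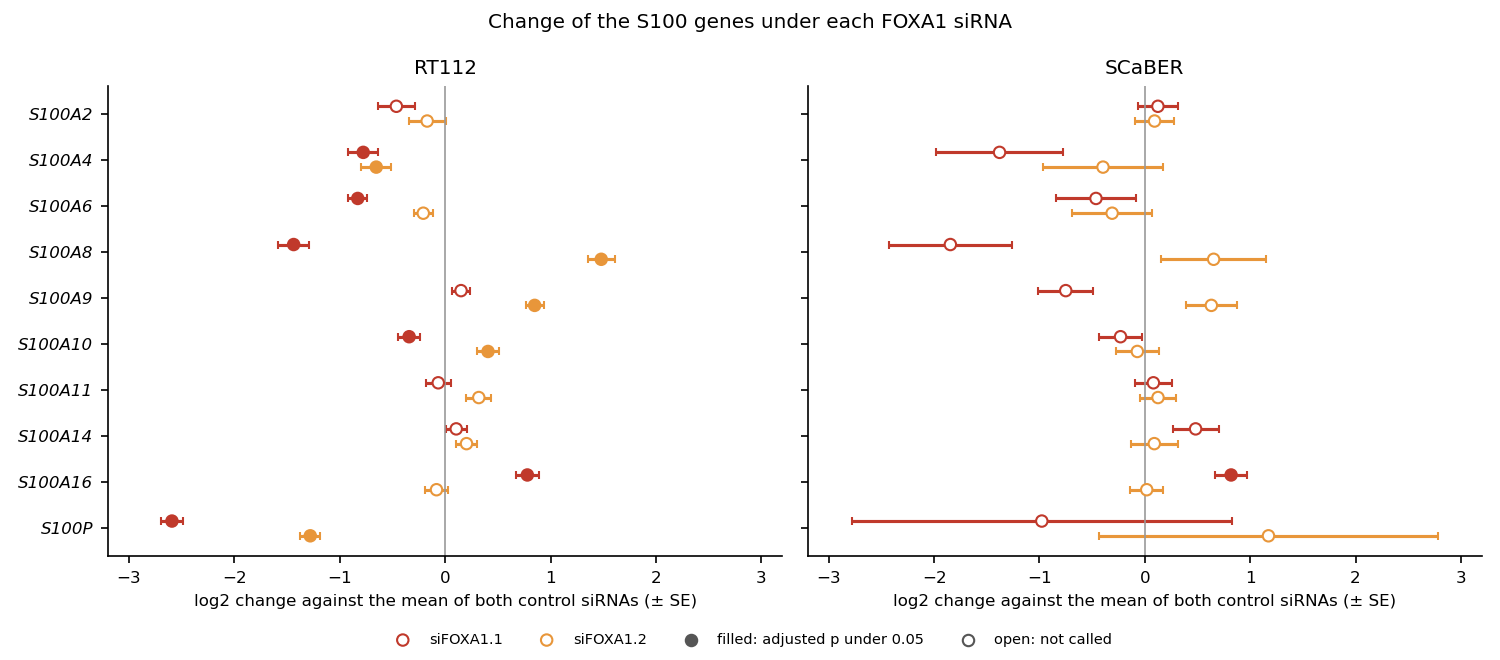
Log2 change of each S100 gene under each FOXA1 siRNA against the mean of both control siRNAs, with bars of 1 SE from the edgeR fit, for RT112 and SCaBER. Filled points passed at an adjusted p under 0.05: 6 and 5 members in RT112 under siFOXA1.1 and siFOXA1.2, and 1 member, S100A16, in SCaBER under siFOXA1.1.

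S100P (ENSG00000163993) fell furthest. It was at 2397 and 2682 CPM under siControl.1, 1304 and 1382 under siControl.2, 738 and 766 under siFOXA1.2, and 309 and 254 under siFOXA1.1. The 4 siRNAs did not overlap, and both FOXA1 siRNAs lay below both controls, whose own levels differed. The log2 change was -2.59 ± 0.102 under siFOXA1.1, a 6.03-fold fall (edgeR adjusted p = 1.67e-12), and -1.28 ± 0.095 under siFOXA1.2, a 2.43-fold fall (adjusted p = 1.10e-07). Against siControl.2 alone, the lower of the controls, the falls were -2.10 ± 0.108 and -0.79 ± 0.104, and both still passed (adjusted p = 1.43e-10 and 0.000191). The fall was steeper under siFOXA1.1 than under siFOXA1.2 by 1.31 ± 0.106 in the direct test (adjusted p = 2.92e-08), where 24.7% of genes and 7 of 10 members were called. The controls differed from each other by 0.98 ± 0.104 (adjusted p = 1.27e-05). Within batch 1 the changes were -2.42 and -1.24, and within batch 2 they were -2.77 and -1.31.

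S100A4 (ENSG00000196154), which binds non-muscle myosin, was at 164 and 157 CPM under siControl.1, 215 and 204 under siControl.2, 113 and 84.1 under siFOXA1.1, and 112 and 118 under siFOXA1.2. All 4 siFOXA1 libraries lay below all 4 controls. It fell by 0.78 ± 0.145 on the log2 scale under siFOXA1.1 (adjusted p = 0.000361) and by 0.65 ± 0.143 under siFOXA1.2 (adjusted p = 0.0194), and the FOXA1 siRNAs differed by -0.12 ± 0.163 (adjusted p = 0.637, 95% interval -0.46 to 0.22). The call under siFOXA1.2 was lost without either of its own libraries (-0.62 without replicate 1 and -0.69 without replicate 2). It was also lost against siControl.1 alone (-0.49, adjusted p = 0.138). Limma on log2(TPM + 1) lost it too (-0.68, adjusted p = 0.124, and 0.209 without a filter). So did limma on log2(TPM + 0.1) (-0.68, adjusted p = 0.137). Of 19 alternative settings for this value, 13 kept the call.

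S100A6 (ENSG00000197956), the most abundant member in RT112, was at 2743 and 2933 CPM under siControl.1, 2644 and 3165 under siControl.2, 1582 and 1388 under siFOXA1.1, and 2218 and 2697 under siFOXA1.2. Only the siFOXA1.1 libraries lay outside the range of the controls on both replicates. It fell by 0.83 ± 0.092 under siFOXA1.1 (adjusted p = 1.13e-06), whereas the value under siFOXA1.2 was -0.21 ± 0.090 (adjusted p = 0.366). The difference between the FOXA1 siRNAs was -0.62 ± 0.103 (adjusted p = 0.000157).

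The calprotectin genes split the RT112 libraries by single siRNA, not by target. S100A8 (ENSG00000143546) was at 311 and 270 CPM under siControl.1 and 259 and 306 under siFOXA1.2, but at 35.7 and 36.6 under siControl.2 and 37.2 and 32.3 under siFOXA1.1. The libraries of siControl.1 overlapped with those of siFOXA1.2, and the libraries of siControl.2 with those of siFOXA1.1, and the 4 high libraries lay apart from the 4 low ones. The controls differed by 3.07 ± 0.169 on the log2 scale, an 8.39-fold difference (edgeR adjusted p = 1.55e-09), and the FOXA1 siRNAs by -2.92 ± 0.168 (adjusted p = 5.43e-10). Set against the mean of both controls, S100A8 therefore appeared to fall under siFOXA1.1 (-1.44 ± 0.1497, adjusted p = 5.17e-07) and to rise under siFOXA1.2 (1.48 ± 0.129, adjusted p = 1.17e-06). Against siControl.2 alone the siFOXA1.1 value was 0.10 ± 0.167 (adjusted p = 0.730), and against siControl.1 alone the siFOXA1.2 value was -0.05 ± 0.152 (adjusted p = 0.956). The direction of the S100A8 change in RT112 thus depended on which control siRNA was used. The myeloid markers summed to 0 to 1.51 CPM under siControl.1, 0 under siControl.2, 1.18 to 7.91 under siFOXA1.1 and 0 to 2.77 under siFOXA1.2. Of the 10, 6 were at 0 throughout, while CSF1R had 0 to 32 counts. The 1 myeloid marker that passed the filter was called higher under siFOXA1.1 in edgeR (log2 change 7.31), where 29.1% of genes were called.

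S100A9 (ENSG00000163220) was at 943 and 881 CPM under siControl.1, 398 and 426 under siControl.2, 625 and 624 under siFOXA1.1, and 1091 in each siFOXA1.2 library. The 4 siRNAs did not overlap, and siFOXA1.1 lay between the controls. The controls differed by 1.21 ± 0.103 (adjusted p = 9.98e-07). S100A9 rose under siFOXA1.2 by 0.85 ± 0.086 (adjusted p = 5.86e-06), and this call was lost against siControl.1 alone (0.25 ± 0.101, adjusted p = 0.283). Under siFOXA1.1 its value was 0.15 ± 0.088 (adjusted p = 0.212), which became -0.45 (adjusted p = 0.00249) against siControl.1 alone and 0.75 (adjusted p = 1.63e-05) against siControl.2 alone. S100A8 made up 23.45% to 24.8% of the S100A8 and S100A9 counts together under siControl.1 and 19.2% to 21.9% under siFOXA1.2, against 7.91% to 8.23% under siControl.2 and 4.92% to 5.62% under siFOXA1.1. Both libraries of each siRNA lay on the same side of this gap.

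**Figure D4:**
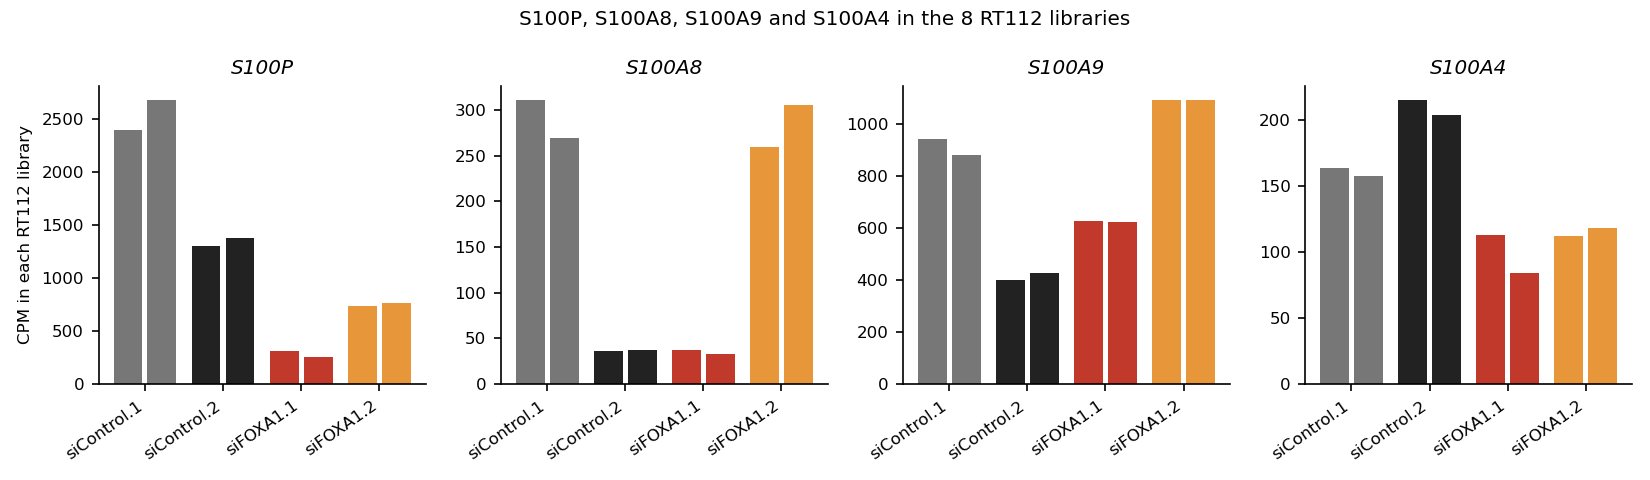
CPM of S100P, S100A8, S100A9 and S100A4 in each of the 8 RT112 libraries, 1 bar per library from 0, with batch 1 on the left of each pair. S100P and S100A4 are lower under both FOXA1 siRNAs, while S100A8 is at 32.3 to 37.2 CPM under siControl.2 and siFOXA1.1 and at 259 to 311 CPM under siControl.1 and siFOXA1.2.

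S100A10 (ENSG00000197747) was at 323 and 304 CPM under siControl.1, 463 and 505 under siControl.2, 299 and 266 under siFOXA1.1, and 527 and 495 under siFOXA1.2. Here siFOXA1.1 lay near siControl.1 and siFOXA1.2 near siControl.2, the reverse of the pairing seen for S100A8. The controls differed by -0.57 ± 0.118 (adjusted p = 0.0139), a call lost without siControl.1 replicate 2 (adjusted p = 0.134) or siControl.2 replicate 2 (adjusted p = 0.0907). The value against both controls was -0.34 ± 0.104 under siFOXA1.1 (adjusted p = 0.0171) and 0.41 ± 0.101 under siFOXA1.2 (adjusted p = 0.0425). The first was lost without siFOXA1.1 replicate 2 (adjusted p = 0.118) and against siControl.1 alone (-0.06, adjusted p = 0.775). The second was lost in 5 of the 8 fits that left out 1 library, all but those without siControl.2 replicate 2 or a siFOXA1.1 library, and against siControl.2 alone (0.12, adjusted p = 0.842). The direct difference between the FOXA1 siRNAs was -0.75 ± 0.119 (adjusted p = 0.000103).

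S100A16 (ENSG00000188643), a widely expressed member, was the one that rose under siFOXA1.1. It was at 332 to 363 CPM in the 4 control libraries, 507 and 582 CPM under siFOXA1.1, and 351 and 295 CPM under siFOXA1.2. The siFOXA1.1 libraries lay above all others. The rise was 0.78 ± 0.110 (edgeR adjusted p = 1.81e-05), while the value under siFOXA1.2 was -0.08 ± 0.113 (adjusted p = 0.885), and the siRNAs differed by 0.86 ± 0.131 (adjusted p = 6.24e-05). It was called against each control alone (0.76 and 0.80), and the controls differed by 0.04 ± 0.130 (adjusted p = 0.962).

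The remaining members gave no call against both controls in RT112 in the edgeR fit. S100A2 was at 71.9 and 108 CPM under siControl.1, 152 and 157 under siControl.2, 69.0 and 87.8 under siFOXA1.1, and 97.1 and 110 under siFOXA1.2. Its value was -0.46 ± 0.177 under siFOXA1.1 (adjusted p = 0.0566), which became -0.10 (adjusted p = 0.766) against siControl.1 alone and -0.82 (adjusted p = 0.00466) against siControl.2 alone. With limma on log2(TPM + 1) and with library totals alone, the median over all genes was itself negative, as the last section gives. S100A2 was called in both (-0.77, adjusted p = 0.0155, and -0.59, adjusted p = 0.016). S100A2 was also called without the filter on low counts (-0.47, adjusted p = 0.0296). It passed with the replicate block (-0.45, adjusted p = 0.0490), in which the batch is a term, and the block also called S100A2 between the controls (-0.73, adjusted p = 0.0345, against 0.0734 without it). It also passed without siControl.1 replicate 2, without siFOXA1.1 replicate 2 and without either siFOXA1.2 library (adjusted p = 0.00749 to 0.0355). S100A11 was at 691 and 860 CPM under siFOXA1.1, 997 and 1189 under siFOXA1.2, and 753 to 989 in the controls, with changes of -0.07 ± 0.119 and 0.32 ± 0.117 (adjusted p = 0.731 and 0.240). The second passed without siControl.2 replicate 1 (0.43, adjusted p = 0.0136) and without either siFOXA1.1 library (adjusted p = 0.00832 and 0.00897). The FOXA1 siRNAs differed in S100A11 by -0.38 ± 0.137 (adjusted p = 0.0468), a call lost without siFOXA1.1 replicate 1 (-0.22, adjusted p = 0.217) or siFOXA1.2 replicate 1 (-0.26, adjusted p = 0.245). S100A14 ranged from 367 to 455 CPM over all 8 libraries, and its changes of 0.11 ± 0.102 and 0.20 ± 0.101 had 95% intervals of -0.11 to 0.32 and -0.01 to 0.41.

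**Figure D5:**
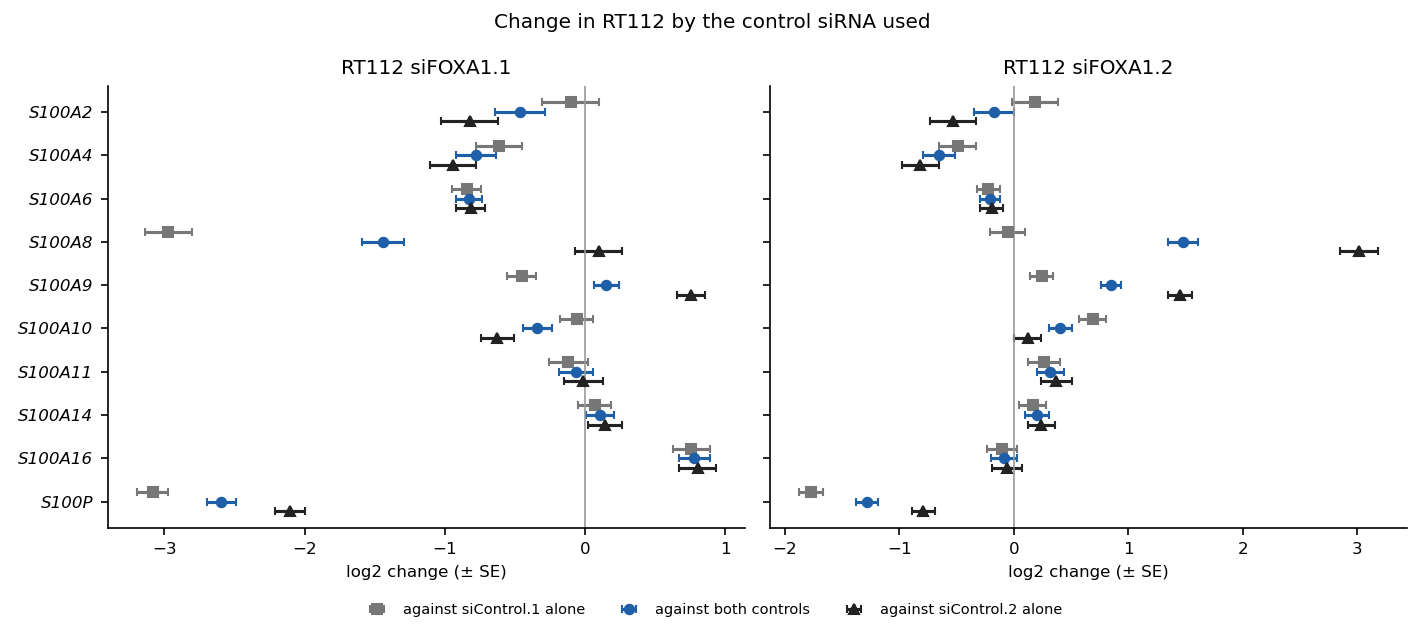
Log2 change of each S100 gene in RT112 under siFOXA1.1 (left) and siFOXA1.2 (right), with bars of 1 SE, against siControl.1 alone (squares), both controls (circles) and siControl.2 alone (triangles). The S100P falls stay below 0 against each control, whereas S100A8 runs from -2.97 to 0.10 under siFOXA1.1 and from -0.05 to 3.02 under siFOXA1.2.

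When both siRNAs of a target were pooled in RT112, 4 libraries against 4, 0 of 10 members passed in edgeR, where 0.108% of 11986 genes were called. S100P had a pooled change of -1.87 ± 0.365 (adjusted p = 0.117) and S100A4 of -0.72 ± 0.167 (adjusted p = 0.201). Before adjustment 3 members were under 0.05, S100P, S100A4 and S100A6, beside 1454 of the 11986 genes. DESeq2 called S100P and S100A4 in this comparison (adjusted p = 5.45e-05 and 0.0178), and limma on log2(TPM + 1) called 0 members. S100P was also called by edgeR without the filter on low counts (adjusted p = 0.000399).

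In SCaBER, 1 of 10 members passed under siFOXA1.1, where 7.87% of 13407 genes tested were called, and 0 of 10 under siFOXA1.2, where 0.0373% of genes were called. S100A16 was at 790 and 824 CPM under siFOXA1.1 and at 408 to 513 CPM in the 4 controls and 471 and 460 CPM under siFOXA1.2. As in RT112, the 2 siFOXA1.1 libraries lay above the other 6. The rise was 0.82 ± 0.153 (edgeR adjusted p = 0.00349), a 1.76-fold change, and the value under siFOXA1.2 was 0.02 ± 0.157 (95% interval -0.32 to 0.35). The direct difference between the FOXA1 siRNAs was 0.80 ± 0.182 (adjusted p = 0.0204), in a comparison that called 3 of 10 members and 4.13% of genes. The S100A16 call there was lost without siFOXA1.2 replicate 1 (0.82) or replicate 2 (0.78), and in all 3 limma settings (adjusted p = 0.076 to 0.127).

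S100A8 and S100A9 differed between the FOXA1 siRNAs in SCaBER too. S100A9 was at 56.8 and 44.8 CPM under siFOXA1.1, 165 and 101 under siFOXA1.2, 101 and 70.4 under siControl.1, and 88.3 and 89.4 under siControl.2. Both siFOXA1.1 libraries were below every control library and both siFOXA1.2 libraries above, the nearest by 101.4 against 101.2 CPM. The direct difference was -1.38 ± 0.294 for S100A9 and -2.50 ± 0.639 for S100A8 (edgeR adjusted p = 0.0141 and 0.0377). Both calls were lost without siFOXA1.2 replicate 1 (-0.98 and -1.77). All 3 limma settings lost them too (adjusted p = 0.058 to 0.104 for S100A9 and 0.126 to 0.225 for S100A8). S100A8 was at 11.2 and 3.04 CPM under siFOXA1.1, 55.8 and 24.4 under siFOXA1.2, 56.7 and 23.7 under siControl.1, and 23.0 and 9.94 under siControl.2. In each siRNA the batch 1 library was the higher one, and siFOXA1.1 overlapped with siControl.2. Against both controls the siFOXA1.1 values were -1.85 ± 0.582 for S100A8 and -0.75 ± 0.260 for S100A9, which missed the threshold (adjusted p = 0.0674 and 0.0970). The S100A8 value was -2.48 (adjusted p = 0.0369) against siControl.1 alone and -1.21 (adjusted p = 0.327) against siControl.2 alone. With the replicate block both passed (-1.93, adjusted p = 0.000859, and -0.76, adjusted p = 0.0281), so that 3 of 10 members were called in place of 1. S100A8 also passed without siFOXA1.1 replicate 1 (-3.10), siControl.1 replicate 2 (-2.10), siControl.2 replicate 2 (-2.08) or either siFOXA1.2 library (adjusted p = 0.000107 to 0.0462). S100A9 passed without siFOXA1.1 replicate 1 or siControl.1 replicate 2 (adjusted p = 0.0197 and 0.0350). Under siFOXA1.2 the values were 0.65 ± 0.499 for S100A8 and 0.63 ± 0.244 for S100A9 (adjusted p = 0.850 for S100A9). S100A9 was the 1 member under 0.05 before adjustment, beside 702 of 13407 genes, and DESeq2 called 0 members there. The SCaBER controls differed in 0 of 10 members, where 0.0671% of genes were called in edgeR. Before adjustment 0 members were under 0.05, beside 852 of 13407 genes, and DESeq2 called 0 members.

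The other members varied in SCaBER without a call in that fit. S100A6 was at 197 and 763 CPM under siFOXA1.1, 451 and 1086 under siControl.1, 534 and 625 under siControl.2, and 491 and 565 under siFOXA1.2, so that the 2 libraries differed widely within siFOXA1.1 and within siControl.1. Its value of -0.46 ± 0.382 under siFOXA1.1 (adjusted p = 0.548) became -1.69 (adjusted p = 4.77e-06) without siFOXA1.1 replicate 2, and the difference between the FOXA1 siRNAs was then -1.37 (adjusted p = 0.000452). S100A10 likewise went from -0.23 ± 0.206 to -0.68 (adjusted p = 0.0150) without that library. S100A4 was at 3.79 and 4.19 CPM under siFOXA1.1, 12.2 and 3.64 under siFOXA1.2, and 6.70 to 18.1 in the controls, a change of -1.38 ± 0.603 under siFOXA1.1 (adjusted p = 0.201). S100A2 (984 to 1445 CPM), S100A11 (931 to 1483 CPM) and S100A14 (70.7 to 124 CPM) had changes between 0.08 and 0.48 under the FOXA1 siRNAs. S100P had 0 to 25 counts per library in SCaBER, and its values of -0.98 ± 1.80 and 1.17 ± 1.61 had intervals of -4.81 to 2.85 and -2.25 to 4.60, so a change of the size seen in RT112 was not detectable at this depth. Pooled over siRNAs, 0 of the 9 members tested passed, where 0.0084% of genes were called. S100A16 was the 1 member under 0.05 before adjustment there, beside 1059 of 11902 genes, and DESeq2 and limma called 0.

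The change under each FOXA1 siRNA was also compared between the lines in 1 fit of all 16 libraries. For siFOXA1.1, 0 of 10 members differed in edgeR, where 2.59% of 15464 genes were called, and for siFOXA1.2, 0 of 10, where 0.0453% were called. Before adjustment 2 members were under 0.05 for siFOXA1.1, S100A2 and S100A9, beside 2301 of 15464 genes. For siFOXA1.2 it was 1 member, S100P, beside 901 of 15464 genes. DESeq2 called 1 and 0 members, and limma 0 and 0. S100A9 was 0.89 ± 0.262 higher in RT112 than in SCaBER for siFOXA1.1 (adjusted p = 0.0765). It passed with the replicate block (adjusted p = 0.0112), with DESeq2 (adjusted p = 0.0209) and without the filter on low counts (adjusted p = 0.00666). The RT112 part of this difference depended on the control, at -0.45 against siControl.1 alone and 0.75 against siControl.2 alone. In SCaBER the change against siControl.1 alone was -0.72. The difference between lines was not refitted against each control alone. S100A16 differed between the lines by -0.05 ± 0.195 (95% interval -0.46 to 0.35). S100P differed by -2.44 ± 0.598 for siFOXA1.2 (adjusted p = 0.289), a value that rests on the few SCaBER counts, and it passed without the filter on low counts (adjusted p = 9.06e-07).

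A further 10 S100 genes were looked up. S100A3, S100A5, S100A12 and S100A13 passed the filter in RT112, and S100A3, S100A7, S100A12 and S100A13 in SCaBER. S100A1, S100A7A, S100B, S100G and S100Z passed in neither line and had at most 3 counts in any library. None of the 4 tested in a line was called under either FOXA1 siRNA by edgeR, DESeq2 or limma, and 0 were under 0.05 before adjustment. Over all genes tested, 5275 and 1529 of 13462 were under 0.05 before adjustment in RT112, and 2830 and 702 of 13407 in SCaBER. S100A13, which overlaps S100A1 on the other strand, had 286 to 406 counts in RT112 and 277 to 466 in SCaBER, with changes of 0.18 ± 0.208 and -0.19 ± 0.211 in RT112 and 0.24 ± 0.238 and -0.41 ± 0.245 in SCaBER. S100A12, the neighbour of S100A8 and S100A9, had 84 and 118 counts under siControl.1, 5 and 17 under siControl.2, 29 and 5 under siFOXA1.1 and 11 and 66 under siFOXA1.2 in RT112, and its changes were -0.80 ± 0.818 and 0.20 ± 0.747. In SCaBER it had 0 to 28 counts, with values of -1.04 ± 2.15 and 1.80 ± 1.89. S100A5 had 2 to 49 counts in RT112 (-0.48 ± 0.915 and 0.67 ± 0.860). S100A3 had 0 to 23 counts in RT112 (1.61 ± 2.00 and 3.58 ± 2.28) and 13 to 64 in SCaBER (-0.17 ± 0.773 and -0.94 ± 0.808). S100A7, psoriasin, had 0 to 90 counts in SCaBER (0.17 ± 1.36 and 0.61 ± 1.33).

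Of 20 genes for binding partners and receptors of S100 proteins, 19 were tested in RT112. Under siFOXA1.1 5 rose and 3 fell, and 2 rose and 1 fell under siFOXA1.2, beside 29.1% and 1.78% of all genes called. ANXA1, annexin A1, the partner of S100A11, rose under both siRNAs. It had 330 and 310 counts under siControl.1, 472 and 509 under siControl.2, 764 and 1013 under siFOXA1.1, and 873 and 922 under siFOXA1.2, all 4 siFOXA1 libraries above the controls. The rises were 1.38 ± 0.159 and 1.22 ± 0.159 (edgeR adjusted p = 1.75e-06 and 0.000121). MYH9, the non-muscle myosin heavy chain bound by S100A4, fell by 0.79 ± 0.117 under siFOXA1.1 (adjusted p = 3.32e-05) and had 0.03 ± 0.112 under siFOXA1.2. PLAT, tissue plasminogen activator, which had 45 and 53 counts under siControl.1 and 181 and 132 under siControl.2, rose under siFOXA1.2 by 2.04 ± 0.283 (adjusted p = 0.000260), with 0.50 ± 0.298 under siFOXA1.1. That call was lost against siControl.2 alone (1.26, adjusted p = 0.0893). EZR, ezrin, a partner of S100P, fell under siFOXA1.2 by 0.70 ± 0.104 (adjusted p = 0.000604), with -0.23 ± 0.102 under siFOXA1.1. In SCaBER 16 of the 20 were tested, 1 rose and 2 fell under siFOXA1.1, and 0 passed under siFOXA1.2 in edgeR, DESeq2 or limma, with 1 under 0.05 before adjustment. Over all genes there, edgeR called 7.87% and 0.0373%, and 702 of 13407 were under 0.05 before adjustment under siFOXA1.2. ANXA1 (0.37 ± 0.176), MYH9 (-0.50 ± 0.168), EZR (-0.32 ± 0.194) and PLAT (0.48 ± 1.16) were not called under siFOXA1.1 there.

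Of 25 genes of the neighbouring epidermal differentiation complex, 7 were tested in RT112. Under siFOXA1.1 3 rose and 1 fell, and 1 rose and 1 fell under siFOXA1.2, beside 29.1% and 1.78% of all genes called. SPRR3, a cornified envelope protein, had 536 to 826 counts in the controls, 1202 and 1083 under siFOXA1.1 and 204 and 314 under siFOXA1.2. It moved in opposite directions, up by 1.06 ± 0.166 (edgeR adjusted p = 5.87e-05) and by -1.25 ± 0.186 (adjusted p = 0.000601). TCHH, trichohyalin, rose under siFOXA1.1 by 2.43 ± 0.383 (adjusted p = 6.60e-05), from 22 to 56 counts in the controls to 167 and 180. CRCT1 had 24 and 56 counts under siFOXA1.1 and 0 in the other 6 RT112 libraries (adjusted p = 0.00302). IVL, involucrin, was at 90.9 and 99.96 CPM under siControl.1, 208 and 160.1 under siControl.2 and 222 and 179.9 under siFOXA1.2, so that siFOXA1.2 overlapped with siControl.2, and the controls differed by -0.89 ± 0.184 (adjusted p = 0.0128). Its value under siFOXA1.2 was 0.62 ± 0.154 (adjusted p = 0.0452), a call lost against siControl.2 alone (0.17, adjusted p = 0.865) and kept against siControl.1 alone (1.06, adjusted p = 0.00202), and it had 0.12 ± 0.158 under siFOXA1.1. In SCaBER 9 of the 25 were tested and 0 were called by edgeR, DESeq2 or limma under either FOXA1 siRNA, with 1 under 0.05 before adjustment in each comparison. Over all genes tested there, 2830 and 702 of 13407 were under 0.05 before adjustment. Of the luminal marker genes tested in RT112, 6 of 7 fell under siFOXA1.1 and 2 of 7 under siFOXA1.2, beside 29.1% and 1.78% of all genes called, and their part in the fall of S100P was not tested.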

How the data were processed

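RNA was measured in 16 libraries made with a kit that primes at the poly(A) tail. Per the deposited configuration, the authors trimmed reads with TrimGalore 0.6.2 (minimum quality 20, minimum length 10), aligned them to hg38 with STAR 2.6.1a and counted genes of GENCODE 29. The study's methods name hg19 instead, so the deposited coordinates were not used, and positions and promoter sequences are from RefSeq GRCh38.p14 (all 10 members matched by symbol). The authors deposited raw counts per gene and TPM values, which divide counts by gene length on 1 common total. The strand setting of the counting was automatic per that configuration.

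Counts were tested in R 4.3.3 with edgeR 4.0.16 (TMM, filterByExpr with a minimum count of 10, quasi-likelihood F test, Benjamini-Hochberg adjustment over all genes tested, threshold 0.05). Each line was fitted with 1 mean per siRNA. Further fits pooled siRNAs by target, compared lines under siControl and compared changes between lines. SE was the log2 change divided by the root of F. CPM was computed from counts and library totals. The fit was run on simulated counts with known changes, drawn from its own estimated spread without batch or control differences. That run checks the code and does not bear on these data. Alternatives were other normalizations, no filter, DESeq2 1.42.0, limma 3.58.1 on log2(TPM + 1) or log2(TPM + 0.1), a replicate block, each control alone, values within a batch and leaving out each library. The 2 libraries of a siRNA differed beyond sampling noise (chi-square per degree of freedom 8.56 to 36.8). The labels call the replicate number an experiment batch, so the number pairs libraries within a line, and the same-numbered libraries correlated in their deviations with a median r of -0.00131 (-0.0158 to 0.00592) in RT112 and 0.0298 (0.00587 to 0.16) in SCaBER.

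The members, the gene lists and the tests were chosen with earlier results of these data known. All 10 members are given, with partner and neighbour genes named as at most the 4 of smallest p in each list in any comparison per siRNA.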

Additional observations from a re-analysis of the deposited data

Results flagged for a closer look

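Of 40 groups of 4 libraries (10 members, 2 lines, siControl or siFOXA1), 2 held a library that stood apart from the others (Dixon ratios of 0.936 and 0.860 of the range). Chance gives about 1 in 20 groups. In SCaBER, S100A4 was at 12.19 CPM in siFOXA1.2 batch 1, while the other 3 siFOXA1 libraries were at 3.64, 3.79 and 4.19 CPM. Without that library the siFOXA1.2 value of S100A4 was -1.52 ± 0.801 (edgeR adjusted p = 1.00) in place of -0.40 ± 0.565. In SCaBER, S100A10 was at 877 CPM in siControl.1 batch 2, while the other 3 siControl libraries were at 609, 635 and 646 CPM. Without that library the siFOXA1.1 value of S100A10 was -0.12 ± 0.204 (adjusted p = 0.824) in place of -0.23 ± 0.206.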

How the results depend on the processing

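Of 2109 refitted values of the members, 1913 kept their direction and side of the threshold, 93 had no call either way and changed sign, 48 lost a call, 52 gained one and 3 reversed, all 3 by the choice of control in RT112. These were S100A9 under siFOXA1.1 (-0.45) and S100A8 under siFOXA1.2 (-0.053) against siControl.1 alone, and S100A8 under siFOXA1.1 (0.10) against siControl.2 alone. Counts of members called that moved by over 1.5 times follow, and the cause was not tested. They are given without the share of all genes called under each setting. Without the filter on low counts there were 1 in RT112 with siRNAs pooled, 3 in SCaBER under siFOXA1.1, and 1 and 1 for the differences between lines. DESeq2 gave 2 pooled in RT112, 2 in SCaBER under siFOXA1.1 and 1 for the siFOXA1.1 difference between lines. All 3 limma settings gave 3 in RT112 under siFOXA1.2, 2 between the RT112 controls and 0 between the SCaBER FOXA1 siRNAs, and limma without a filter gave 0 in SCaBER under siFOXA1.1. The replicate block gave 3 in SCaBER under siFOXA1.1 and 1 for the siFOXA1.1 difference between lines (S100A9), and beside these it changed the calls of S100A2 in RT112 and no other. Against siControl.1 alone there were 2 in RT112 under siFOXA1.2 and 2 in SCaBER under siFOXA1.1. Leaving out 1 library gave 3 to 6 in RT112 under siFOXA1.2 (3 without either siFOXA1.2 library), 3 to 5 between the RT112 controls, 1 to 3 in SCaBER under siFOXA1.1 and 0 to 4 between the SCaBER FOXA1 siRNAs (0 without siFOXA1.2 replicate 1). In RT112 under siFOXA1.1 it gave 6 to 7. The median over all genes there was -0.14 with library totals alone and -0.31 with limma on log2(TPM + 1). With 2 libraries per siRNA and a few S100P counts per SCaBER library, depth and replicate number limit what could be called.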
